A study of Mus musculus with 6 samples.

Results

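Arpc3, Myh9, Capza1, Gas7 and Plek encode proteins that build, cap, pull on or bind the actin cortex, the filament layer under the plasma membrane of the egg. They were taken by symbol from a deposited table of 516 genes, and 5 of the 5 had a row. The RNA came from metaphase II oocytes, the ripe eggs that wait in the second division of meiosis for fertilization, of C57BL/6 females aged 24 days that had been given PMSG and then hCG to induce ovulation. In the Mtor CKO group (n = 3 libraries) the kinase gene Mtor was deleted by Zp3-Cre, a recombinase driven by the promoter of an egg coat gene that is active in growing oocytes, so the cells around the oocyte are not its target. The WT group (n = 3 libraries) was wild type on the same strain and received the same hormones. The labels do not say whether these WT females carried the floxed allele without Cre, or whether libraries came from separate mice. Each library pooled 5 ovulated oocytes.

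The egg cortex is a thin mesh of actin filaments. The Arp2/3 complex starts new filaments as branches on old ones, capping protein closes the fast-growing ends, and nonmuscle myosin II pulls filaments past each other. In the mouse egg an actin cap forms over the spindle, and a contractile ring of actin and myosin II pinches off each polar body, the small cell that carries away the discarded chromosomes. MTOR acts in part through a complex, MTORC2, that is known for its effect on the actin cytoskeleton.

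The start regions are shown first, as a description of sequence. Their part in the values below was not tested. RefSeq promoter windows (build GRCm38.p6) were found for 4 of the 5 members, not Gas7, and each is printed from 120 bases before to 30 bases from the annotated start on the coding strand. Capitals mark GGGCGG or CCGCCC (the GC box), CCGGAAG or CTTCCGG (an ETS-type motif), CCAAT or ATTGG, and TATAAA or TTTATA, searched in both orientations.
Arpc3, chr5:122391758-122391907, plus strand: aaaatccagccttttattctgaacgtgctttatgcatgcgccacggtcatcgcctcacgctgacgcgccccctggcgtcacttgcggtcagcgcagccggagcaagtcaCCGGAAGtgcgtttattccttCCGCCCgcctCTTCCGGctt
Myh9, chr15:77842146-77842295, minus strand: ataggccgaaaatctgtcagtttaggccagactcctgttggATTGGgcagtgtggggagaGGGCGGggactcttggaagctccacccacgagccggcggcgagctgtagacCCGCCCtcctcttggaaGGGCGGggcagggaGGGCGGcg
Capza1, chr3:104864476-104864625, minus strand: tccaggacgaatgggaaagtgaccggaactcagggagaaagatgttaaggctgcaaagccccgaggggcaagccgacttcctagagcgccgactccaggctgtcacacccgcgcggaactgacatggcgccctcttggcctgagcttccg
Plek, chr11:17008689-17008838, minus strand: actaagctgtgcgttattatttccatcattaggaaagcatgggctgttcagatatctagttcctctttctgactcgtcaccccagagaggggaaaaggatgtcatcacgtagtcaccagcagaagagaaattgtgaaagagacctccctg
In the full windows of 300 bases, Arpc3 held 21 CpG dinucleotides, Capza1 held 21 and Myh9 held 19, against 4 in Plek and a median of 7 over 32851 windows. Myh9 had 6 GC boxes, and 35.7% of all windows had at least 1. Arpc3 had 2 ETS-type motifs, on either side of its start, and 8.86% of windows had at least 1. Capza1 had 1 ETS-type motif and 1 GC box, which run past the end of the stretch printed and so carry no capitals there. The RefSeq start used for Plek lies at 17008718, while the GENCODE gene model begins at 17052381 on the same strand. A match here describes these letters only, and the start sites used in these oocytes were not measured.

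The table was already a selection. Its 516 rows had p under 0.01 and an absolute log2 fold above 1 in the authors' deposited table, where 23.6% of rows were higher and 76.4% lower after deletion of Mtor. The tests below therefore describe genes picked for a difference in these same libraries, and passing them is not independent evidence of one. Values are FPKM, which divide the fragments of a gene by its length and by the size of the library, so read depth is unknown. The median FPKM over the 516 rows was 3.77 to 5.40 in the Mtor CKO libraries and 7.37 to 9.18 in the WT libraries. Mtor has no row, so the deletion could not be checked. Of 14 oocyte markers, Zp2 and Nlrp5 have rows, and each of the 6 libraries held at least 73.1 FPKM of Zp2 and 149.7 FPKM of Nlrp5. Both fell: Zp2 had means of 79.0 ± 5.57 FPKM in CKO and 164 ± 17.9 FPKM in WT (log2 difference -1.04; limma adjusted p = 0.0370), and Nlrp5 162 ± 12.02 and 551 ± 225 FPKM (-1.67; limma adjusted p = 0.0362; SD, n = 3 each), with no overlap between the groups. The other 12 have no value here.

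Arpc3, Myh9 and Gas7 had higher means in Mtor CKO, and Capza1 and Plek were lower. By limma on log2(FPKM + 1), with Benjamini-Hochberg adjustment over the 471 genes of sufficient level and a threshold of 0.05, Capza1 and Plek fell and the 3 genes with higher means did not pass. Over the 471 tested genes 73.7% passed, 13.4% as higher and 60.3% as lower, so 2 of 5 is not more than the share of the table as a whole. "Fell" and "rose" below mean past this threshold. In bulk RNA from whole oocytes, less RNA per egg and fewer eggs that hold the transcript cannot be told apart. FPKM is also a share of its library, so a changed total or make-up of the RNA cannot be told apart from these.

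Per length, Arpc3 was the most abundant of the 5 in WT eggs, with a mean of 46.6 ± 10.8 FPKM (SD, n = 3), and Gas7 the least, with 1.415 ± 0.444 FPKM (SD, n = 3). Plek, Myh9 and Capza1 stood between them at 17.1 ± 18.1, 13.2 ± 5.97 and 10.1 ± 2.23 FPKM (SD, n = 3 each), and their ranges over the WT libraries overlapped. In Mtor CKO eggs the order was Arpc3 (97.9 ± 47.2 FPKM), Myh9 (32.5 ± 21.9 FPKM), Capza1 (4.73 ± 0.693 FPKM), Gas7 (2.59 ± 1.29 FPKM) and Plek (0.649 ± 0.183 FPKM; SD, n = 3 each). There the ranges of Arpc3 and Myh9 overlapped, while those of Myh9, Capza1, Gas7 and Plek were separate from one another. Myh9 thus lay near Capza1 in WT eggs and above it in Mtor CKO eggs. By its mean, Plek moved from the middle of the order to its end. In WT replicate 1, however, Plek was already last, at 1.14 FPKM against 1.27 FPKM for Gas7.

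**Figure D1:**
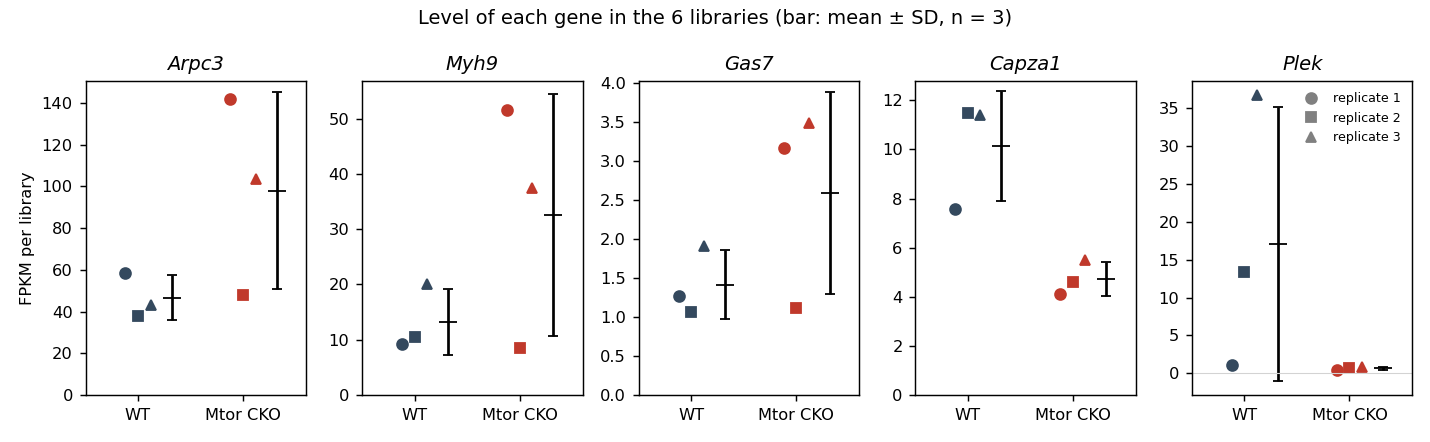
FPKM (vertical axis, linear) of each gene in the 3 WT and 3 Mtor CKO libraries, with the replicate number as the symbol and the mean ± SD beside the points. For Arpc3 and Gas7, CKO replicate 2 lies within the WT range, and for Myh9 just below it, while CKO replicates 1 and 3 lie above the WT libraries; for Capza1 and Plek the groups do not overlap.

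Arpc3 (ENSMUSG00000029465; chromosome 5, 122391878 to 122406179, plus strand, mm10) encodes a subunit of the Arp2/3 complex. CKO replicates 1, 2 and 3 held 142.0, 48.0 and 103.6 FPKM, and WT replicates 1, 2 and 3 held 58.7, 37.9 and 43.2 FPKM. The groups overlapped, because CKO replicate 2 lay below WT replicate 1. The CKO mean was 2.101 times the WT mean, and the log2 difference was 0.95 with an SE of 0.45 (limma adjusted p = 0.0741). In addition, the exact two-sided permutation test over the 6 libraries gave p = 0.2, where 0.1 is the smallest it can give. Without CKO replicate 2 the log2 difference was 1.39 (limma adjusted p = 0.0147), and without CKO replicate 1 it was 0.61 (limma adjusted p = 0.226). In the fit without CKO replicate 2, 383 of 464 tested genes passed, 88 of them as higher, so a pass there is common in the table. The authors' deposited table gives it a log2 fold of 1.10 and a q-value of 0.0143, under the bound of 0.05 that 49.2% of its rows met, and Myh9, Capza1 and Plek met that bound as well (q = 0.00591 for each). The longest coding transcript of Arpc3 has 899 bases. Of the 113 shortest of 451 matched genes, up to 2321 bases, 44.2% were higher after deletion by the authors' deposited table, against 14.3% to 15.9% in the 3 longer classes of like size. The part of transcript length in its value was not tested.

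Myh9 (ENSMUSG00000022443; chromosome 15, 77760587 to 77842175, minus strand, mm10) encodes the heavy chain of nonmuscle myosin IIA, a motor of cortical tension and of the contractile ring. CKO replicates 1, 2 and 3 gave 51.6, 8.55 and 37.4 FPKM, and the 3 WT replicates gave 9.15, 10.5 and 20.1 FPKM. CKO replicate 2 held the lowest value of all 6 libraries, and the other CKO libraries held the highest. The ratio of the means was 2.46 and the log2 difference 0.99 (SE 0.64), with a limma adjusted p of 0.161 and an exact permutation p of 0.4. Without CKO replicate 2, a fit in which 383 of 464 tested genes passed, the log2 difference was 1.735 (limma adjusted p = 0.0141). Without CKO replicate 1 it was 0.50 (limma adjusted p = 0.458). The log2 fold in the authors' deposited table, 1.62, rests on a WT group value of 8.19 FPKM, which is below each of the 3 WT libraries. Such a WT group value outside the range of its own libraries occurred in 27.7% of the rows. With 7433 bases, the Myh9 transcript is in the longest class. The longest matches to other genes were to Myh11 and Myh10, at 76.4% and 75.7% identity over 5812 and 5756 bases, and 0 other genes reached 95% identity over 200 bases.

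Gas7 (ENSMUSG00000033066; chromosome 11, interval 67455437 to 67771153, plus strand, mm10) encodes an F-BAR protein, which binds curved membrane and actin filaments. The values of the CKO replicates, in order, were 3.17, 1.11 and 3.49 FPKM, and those of the WT replicates 1.27, 1.07 and 1.91 FPKM. CKO replicate 2 lay inside the WT range and the other CKO libraries above it, and 4 of the 6 values were under 2 FPKM. The log2 difference was 0.51 (SE 0.35, limma adjusted p = 0.182; exact permutation p = 0.3). Without CKO replicate 2, when 383 of 464 tested genes passed, it was 0.86 (limma adjusted p = 0.0281). Without CKO replicate 3 the log2 difference was 0.31 (limma adjusted p = 0.438). The q-value in the authors' deposited table was 0.0913. Besides Gas7, the interval spans the protein-coding genes Glp2r and Rcvrn, although the 11 Ensembl transcripts listed for it are all of Gas7. Exons of Glp2r on the other strand share 66 bases with those of Gas7, and the labels do not say that strand was used.

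Across the libraries these 3 genes had like profiles. Over the 6 libraries, Pearson's r on log2(FPKM + 1) was 0.968 between Myh9 and Gas7, 0.866 between Arpc3 and Gas7, and 0.846 between Arpc3 and Myh9, as a description of libraries that share depth and genotype. Relative to its WT mean, Myh9 was at 3.90, 0.646 and 2.82 in CKO replicates 1, 2 and 3, and Gas7 at 2.24, 0.786 and 2.47. The ratio of Myh9 to Gas7 within a library, from which library scaling cancels, ranged from 7.23 to 16.3 with overlapping groups. Among the 122 rows with a positive log2 fold in the authors' deposited table, CKO replicate 2 was the lowest CKO library in 68.0% and was also at or below the highest WT library in 27.0%. The 3 genes belong to this smaller set.

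A marker of another cell type also had a higher CKO mean, with CKO replicate 2 the lowest CKO library and within the WT range. In 68.0% of the 122 rows with a positive log2 fold, that library was the lowest CKO library. Relative to the WT mean it stood at 1.22 for this marker, Krt7, against 0.646 for Myh9 and 0.786 for Gas7. The oocyte markers Zp2 and Nlrp5 were lower in CKO, as given above and as 76.4% of all rows were. Krt7, a keratin of simple epithelia and the 1 gene of 15 on the oviduct epithelium list with a row, measured 7.81, 4.23 and 10.1 FPKM in CKO replicates 1, 2 and 3 against 3.59, 2.45 and 4.40 FPKM in the WT replicates (log2 difference 0.86, limma adjusted p = 0.0685). The other 14 oviduct markers have no value here. The ratio of Gas7 to Krt7 stayed between 0.263 and 0.435 in the 6 libraries, and that of Myh9 to Krt7 between 2.02 and 6.61. The part of other cells in the values of Arpc3, Myh9 and Gas7 was not tested. Of the 20 cumulus and granulosa markers, Vcan has a row. It was listed at 0 in each Mtor CKO library and at 4.33, 0.245 and 0 FPKM in WT, and so did not follow these genes.

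**Figure D2:**
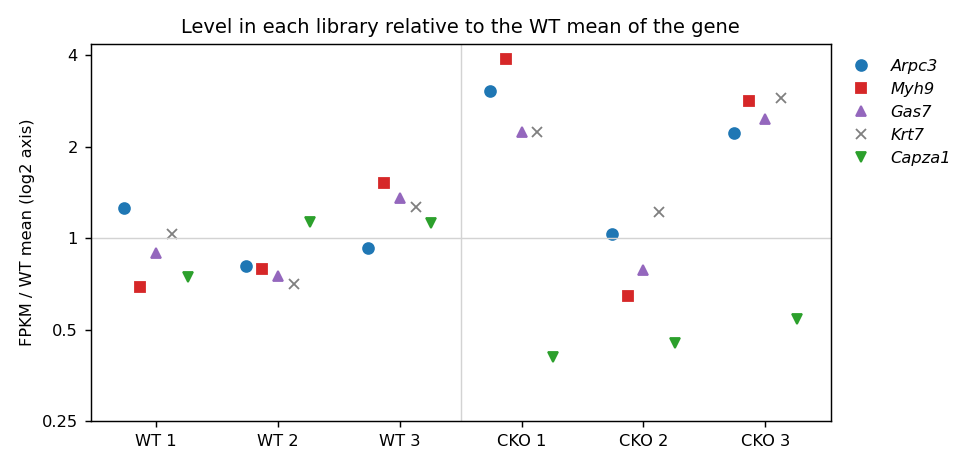
Level of Arpc3, Myh9, Gas7, Capza1 and the epithelial marker Krt7 in each library, divided by the WT mean of the gene (vertical log2 axis, no unit). CKO replicates 1 and 3 are high for Arpc3, Myh9, Gas7 and Krt7, CKO replicate 2 is between 0.646 and 1.22 for them, and Capza1 is under 0.6 in each CKO library.

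Capza1 (ENSMUSG00000070372; chromosome 3, interval 104822779 to 104927894, minus strand, mm10) encodes an alpha subunit of the capping protein that closes filament ends. The CKO replicates held 4.11, 4.59 and 5.48 FPKM, and the WT replicates held 7.57, 11.5 and 11.4 FPKM. Each CKO library lay below each WT library. The same held for Plek, so 2 of the 5 members were separated in this direction and 0 in the other, against 57.4% and 14.5% of all 516 rows (71.9% in either). Capza1 fell. Its WT mean was 2.15 times its CKO mean, and on the log2 scale the difference was -0.95 (SE 0.34; limma adjusted p = 0.0415; exact permutation p = 0.1, the smallest possible). The call was lost without CKO replicate 1, CKO replicate 3, WT replicate 2 or WT replicate 3 (limma adjusted p = 0.104, 0.0988, 0.118 and 0.114), when at most 5 of all tested genes passed. With each library centred on the median of the tested genes, which moves every log2 difference up by 0.75, it was -0.20 (limma adjusted p = 0.635). Of the rows, picked for a difference, 76.4% were lower in the authors' deposited table. Their median is therefore no neutral reference, and such centring takes lower calls away by its make. In the authors' deposited table the group values, 5.66 FPKM in CKO and 12.6 FPKM in WT, lie above each library of their own group. The row is also uncertain in its identity, although the 2 Ensembl transcripts listed for it are both of Capza1. The pseudogene Gm3608 matches 89.5% of the Capza1 transcript at 99.5% identity. Gm5920, a processed pseudogene, matches 26.8% of it at 96.3% identity, and 166 exonic bases overlap St7l on the other strand. Reads from these cannot be told apart from Capza1 by its FPKM.

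Capza2, the other widely expressed alpha subunit, is on the fixed list of actin genes and fell too. The CKO replicates gave 23.3, 40.7 and 53.7 FPKM against 58.2, 94.2 and 126.3 FPKM in the WT replicates (log2 difference -1.23, SE 0.44, limma adjusted p = 0.0407). Capza2 was the more abundant of the pair in every library, by 5.66 to 9.81 times in Mtor CKO and by 7.69 to 11.1 times in WT. These ratios overlapped between the genotypes, so the balance of the alpha subunits did not separate the groups. The ratio of Arpc3 to Capza1 did: it was 34.5, 10.5 and 18.9 in CKO replicates 1, 2 and 3 against 7.76, 3.30 and 3.79 in WT. Because it is taken within a library, this ratio does not depend on how libraries were scaled. It follows from the opposite directions for which the rows had been selected, and is given as a description.

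Plek (ENSMUSG00000020120; chromosome 11, interval 16971206 to 17079371, minus strand, mm10) encodes pleckstrin, a phosphoinositide-binding substrate of protein kinase C known from platelets and white blood cells, where it acts on the cortical actin skeleton. In the CKO replicates its FPKM was 0.447, 0.695 and 0.805, and in WT replicates 1, 2 and 3 it was 1.14, 13.4 and 36.7. The CKO libraries were low and close together, whereas WT replicate 1 was little above them and WT replicates 2 and 3 were far above. WT replicate 1 was the lowest WT library in 61.9% of the 394 rows with a negative log2 fold in the authors' deposited table. Plek fell by limma, and the log2 difference was -2.68 (SE 0.87; limma adjusted p = 0.0375; exact permutation p = 0.1, the smallest possible). Its CKO values are all under 1 FPKM, so it met the filter on level through WT alone; without a filter the difference was the same, with a limma adjusted p of 0.0447. The WT mean of 17.1 FPKM was 26.3 times the CKO mean, and its SD, 18.1 FPKM, exceeded it. Leaving out a WT library drops Plek below the filter on level, so those fits were made without that filter. The log2 difference was then -3.83 without WT replicate 1 (limma adjusted p = 0.0226), -2.45 without WT replicate 2 (limma adjusted p = 0.118) and -1.76 without WT replicate 3 (limma adjusted p = 0.104). It also did not pass without CKO replicate 1 or 3 (limma adjusted p = 0.0958 and 0.0965) or with centred libraries (-1.93, limma adjusted p = 0.188). None of the 32 blood, platelet and immune markers has a row, so their levels in these libraries are not known. The row's interval takes in Cnrip1, whose exons on the other strand share 199 bases with those of Plek.

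**Figure D3:**
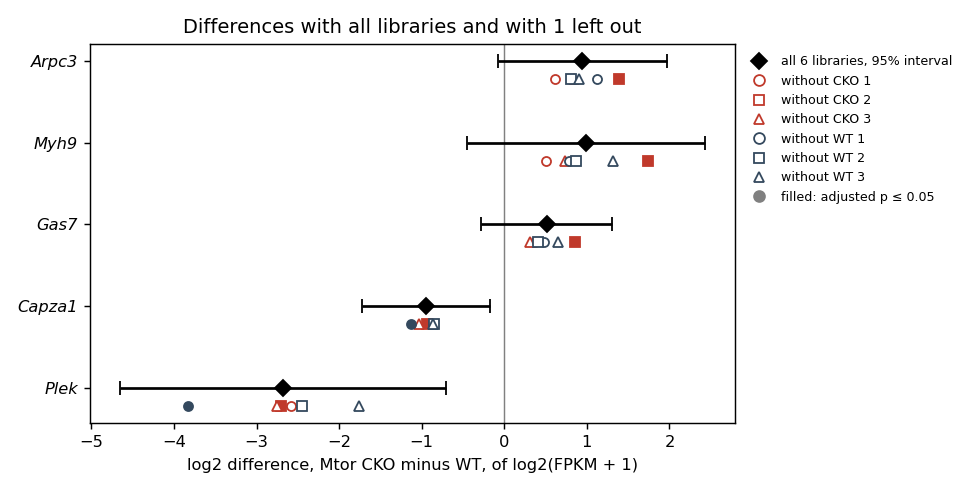
Log2 difference of each gene, Mtor CKO less WT in log2(FPKM + 1) (horizontal axis), with all 6 libraries (diamond and 95% interval from limma) and with 1 library left out (smaller symbols, filled where the adjusted p was at most 0.05; for Plek without a WT library, no filter on level was used). Arpc3, Myh9 and Gas7 passed when CKO replicate 2 was left out, a fit in which 383 of 464 tested genes passed, 88 of them as higher. Plek ranges from -3.83 to -1.76 with the WT library omitted.

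By likeness of profile, the named genes closest to each member were found among 412 other rows with a mean of at least 1 FPKM and an established symbol, by Pearson's r on log2(FPKM + 1) over 6 libraries. For Arpc3 they were Prm2 (r = 0.971), Wfdc15a (0.965) and Acot13 (0.954). For Myh9 they were Stx4a (r = 0.984), Gas7 (0.968) and Sema4b (0.967), and for Gas7 they were Wdr34 (r = 0.978), Myh9 (0.968) and Leprel2 (0.963). Stx4a, a membrane fusion protein, gave 38.7, 11.9 and 28.7 FPKM in the CKO replicates and 9.25, 12.5 and 18.1 FPKM in the WT replicates, with CKO replicate 2 inside the WT range. Capza1 was most like Phb2 (r = 0.998), Nxf1 (0.998) and Mapk1ip1l (0.993). Plek was most like Alg12 (r = 0.992), Esr1 (0.989) and Ncoa4 (0.987). In these WT replicate 3 was highest and WT replicate 1 lowest of the WT libraries, which largely follows from their choice by r with Plek. All rows were picked for a genotype difference, so a high r is common among them.

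The wider actin machinery was read from 7 lists of 287 symbols, some of them older and newer names of 1 gene. Of these, 15 had a row, 4 higher and 11 lower in the authors' deposited table. By limma 1 rose, 10 fell and 4 did not pass, with a median log2 difference of -1.21, against -1.03 over all 471 tested genes, of which 13.4% rose and 60.3% fell. With each library centred on the table's median, 3 genes of the whole table passed as lower. That median comes from rows picked mostly as lower, so the loss of lower calls was largely built in. Without the 5 members, 1 of 10 rose, 8 fell and 1 did not pass. Symbols without a row have no value here.

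The gene that rose was Cobl, which nucleates unbranched actin filaments, with 9.73, 6.43 and 7.88 FPKM in the CKO replicates against 3.76, 5.08 and 2.65 FPKM in the WT replicates (log2 difference 0.91, limma adjusted p = 0.0453). In contrast to Arpc3, its CKO replicate 2 stayed above the WT libraries. Of the list of actins, capping, severing and turnover, 4 of 4 with a row fell: Capza1, Capza2, the cofilin phosphatase Ssh1 and the coronin Coro1b, where 60.3% of all tested genes fell. Ssh1 had means of 2.06 ± 1.63 FPKM in CKO and 6.03 ± 2.45 FPKM in WT, and Coro1b of 1.77 ± 1.35 and 7.35 ± 3.52 FPKM (SD, n = 3 each). Their log2 differences were -1.28 and -1.64.

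Among motors, Myo1e, a membrane-bound class I myosin, fell, with means of 1.36 ± 0.279 FPKM in WT and 0.464 ± 0.149 FPKM in CKO (SD, n = 3 each), while Myh9 did not pass. Myo1e met the filter of 1 FPKM in 3 libraries through its WT values alone, so it could enter the test only as a lower gene. Sh3gl1, a BAR protein of endocytosis, fell as well, with 8.06 ± 3.65 FPKM in WT and 2.32 ± 0.670 FPKM in CKO (SD, n = 3 each). The cytokinesis genes Prc1, Plk1 and Kif20a fell, at log2 differences of -1.21, -1.39 and -1.405, where 60.3% of all tested genes fell. Pls3, an actin bundler, stood at -0.73 on the same scale without passing (limma adjusted p = 0.0664). In their means, Arpc3 and Myh9 stood on the other side from capping protein and the cytokinesis genes, but the CKO libraries did not separate from WT for Arpc3 or Myh9. With 76.4% of the rows picked as lower, any row picked as higher stands opposite most of the table.

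**Figure D4:**
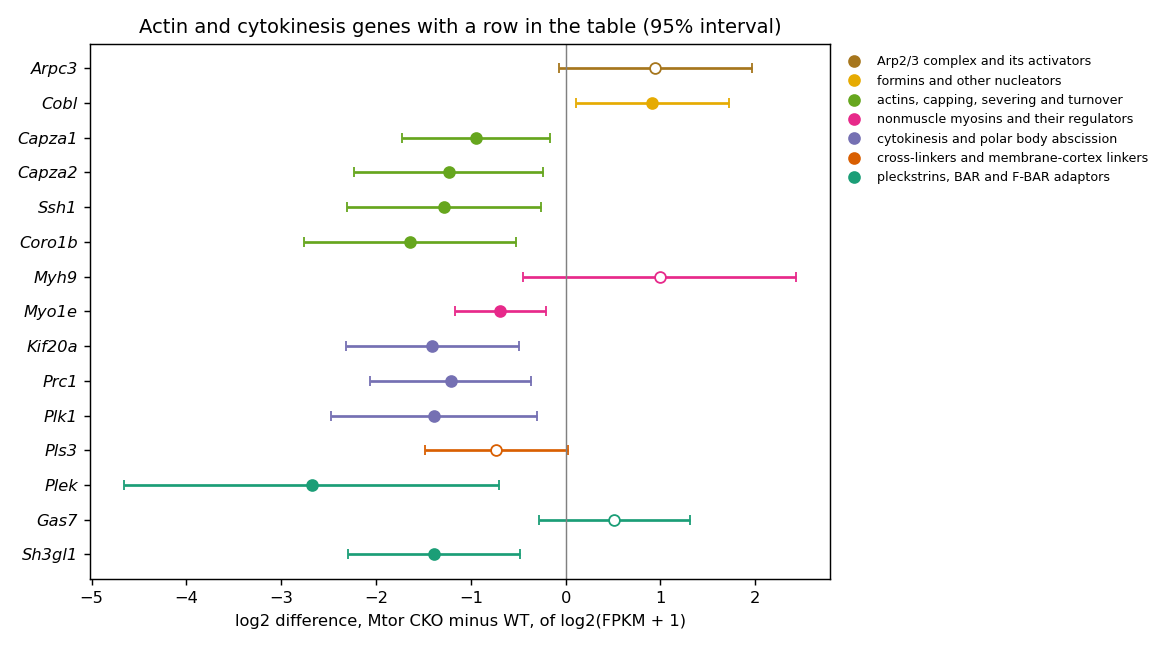
Log2 difference, Mtor CKO less WT in log2(FPKM + 1) (horizontal axis), with its 95% interval from limma, for the 15 actin and cytokinesis genes that have a row, coloured by list. Filled symbols passed an adjusted p of 0.05; Cobl is the gene that rose, and the intervals of Arpc3, Myh9, Gas7 and Pls3 take in 0.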

How the data were processed

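The data are 1 deposited table with an FPKM per gene in each of 6 libraries (3 Mtor CKO, 3 WT). Per the labels' protocols, mice received 5 IU of PMSG at 22 days and 5 IU of hCG 48 h later, oocytes were collected 14 h after that, and cDNA from 5 oocytes was amplified by 17 PCR cycles. Per the submitters' processing notes, TopHat2 2.0.8b, Cufflinks 2.1.1 and Cuffdiff were used with mm10. The authors' FPKM keep no counts, so depth and counting error are unknown. The deposited table also gives the authors' log2 fold, p-value and q-value; its log2 fold equalled the log2 of CKO over WT group FPKM for the members. Interval starts were raised by 1 to count from 1.

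Limma 3.58.1 (R 4.3.3, empirical Bayes with trend) was fitted to log2(FPKM + 1) for the 471 of 516 genes with at least 1 FPKM in at least 3 libraries. Differences are CKO minus WT on that scale, which understates changes of low genes. P-values reflect only how these libraries vary, which may be technical. The fit was also run on simulated data with independent noise and equally many raised and lowered genes. The selected table differs from that setting, so the run does not vouch for the calls given here. Exact permutation tests used scipy 1.17.1. Annotation was GENCODE M21 of the same assembly; similar transcripts were searched with BLAST 2.17.0 (at least 200 aligned bases). Named genes were the members, the list genes with a row and the 3 most like rows per member. A planned gene list is not reported here. The members and lists were chosen with earlier results of these data known. Alternatives were the pseudocount, filter, trend, centring, a replicate block and leaving out each library; fits for Plek without a WT library and without the filter were added after seeing the data. The authors' group values were not used in tests.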

Additional observations from a re-analysis of the deposited data

How the results depend on the processing

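The 5 log2 differences kept their sign under every alternative run. With each library centred on the table's median, Capza1 and Plek no longer passed (-0.20 and -1.93), and the number of genes that passed was 89 in place of 347, with 3 in place of 284 lower. Because 76.4% of the rows had been picked as lower, this centring removes lower calls by its make. It cannot decide how the calls would fare with a centring on all genes, which the table does not hold. With each of 6 libraries left out in turn, the log2 difference ranged from 0.61 to 1.39 for Arpc3, 0.50 to 1.735 for Myh9, -1.13 to -0.85 for Capza1, 0.31 to 0.86 for Gas7 and, without CKO libraries, -2.75 to -2.59 for Plek. The added fits of Plek without WT replicate 2 or 3 and without the filter gave -2.45 and -1.76, and -3.83 without WT replicate 1. The count of genes that passed ranged from 3 to 383 (1 to 88 higher, 1 to 295 lower), and the count of 383 came from omitting CKO replicate 2. Omitting CKO replicate 1 or 3 left 4 or 5 genes, and omitting WT replicate 2 or 3 left 3 or 4. The number higher was 37 without WT replicate 1. The cause was not tested.

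With the replicate number as a block, Arpc3 passed (0.95, limma adjusted p = 0.0286), no other call of the members changed, and 405 genes passed. The numbers were not taken as a pairing, because the labels do not say whether equal numbers share an animal or day. Deviations of libraries with the same number correlated at 0.115, 0.24 and 0.0843. CKO replicate 1 correlated slightly better with WT replicate 3 (0.118) than with WT replicate 1. All other pairs of unlike number were negative, from -0.218 to -0.00681. Deviations were centred within each group of 3 libraries, so these correlations depend on each other and cannot decide whether equal numbers form pairs. Pseudocounts of 0.1 and 5, the other filters and the fit without trend changed no call of the members. Because the table holds no counts, differences of genes near 1 FPKM, such as Gas7, have an unknown counting error.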

Other observations

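Some rows were read by the annotation that the authors attached to them, chosen after their values had been seen and given without a test. All 4 rows annotated to the membrane ruffle, which are Myh9, Gas7, Cobl and Pdpn, had a positive log2 fold in the authors' deposited table, where 23.6% of rows were higher, and of these Cobl passed limma. Pdpn, a membrane glycoprotein that links to the cortex through ezrin-type proteins, gave 50.8, 13.8 and 27.1 FPKM in the CKO replicates and 8.35, 12.01 and 18.4 FPKM in the WT replicates, so CKO replicate 2 lay inside the WT range. In other annotations of the same kind, most rows had a negative log2 fold in the authors' deposited table, where 76.4% of all rows did. They were 6 of 9 for actin binding, 3 of 5 for actin filament binding, 6 of 7 for actin cytoskeleton organization and 4 of 5 for the cleavage furrow. These shares are near that of the whole table or below it, so they show no lean of their own. Of the 5 rows annotated to cytokinesis, Prc1, Plk1, Kif20a and Becn1 fell and Myh9 did not pass, where 60.3% of all tested genes fell. Mkl2, a coactivator of the serum response factor that responds to free actin and is known to drive actin cytoskeletal genes, fell, with 10.9 ± 3.93 FPKM in WT and 3.39 ± 1.59 FPKM in CKO (SD, n = 3 each) and a difference of -1.44 on the log2 scale (limma adjusted p = 0.0362).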
